A study of Mus musculus with 3 samples.

Results

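The genes described here handle cellular iron: its export (Slc40a1, Heph), uptake (Tfrc, Steap3, Slc11a2), storage (Fth1, Ftl1), release from heme (Hmox1) and sensing (Ireb2, Aco1). They are 10 of the 31510 genes in the deposited tables and were chosen by name with their measured values in these libraries already known, so their levels and differences are a description and carry no test. RNA came from mouse blastocysts held in delayed implantation, in which the embryo rests in the uterus until estrogen acts on the mother. All mothers were CD-1 mice 2 months old whose ovaries were removed on day 4 of pregnancy and who were then kept on daily progesterone, 2 mg each, from day 5 to day 7. The dormant state was collected by uterine flushing on day 8, without estradiol (E2). Reactivating and reactivated blastocysts came from mothers killed 6 h and 12 h after E2 was injected on day 7. Each state is 1 library made from a pool of more than 3000 blastocysts, so no spread between animals can be given, and the time of collection differs between the states together with E2.

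Cells take up iron mainly as transferrin bound to the transferrin receptor, reduce it in the endosome and move it into the cytosol. Iron that is not used is stored in ferritin shells built of heavy and light chains, and ferroportin is the exporter through which iron leaves a mammalian cell. When iron is scarce, the iron regulatory proteins bind hairpins called iron-responsive elements, which blocks translation from mRNAs that carry one in the 5′ UTR and protects Tfrc mRNA, which carries several in the 3′ UTR, from degradation. An mRNA level is therefore only part of how much of these proteins a cell makes, and protein was not measured here. At the blastocyst stage the trophectoderm, the outer layer that contacts the uterus, is the embryo's interface with maternal nutrients.

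The hairpins link 4 of the 10 genes, and they are shown because they divide the genes by the side of the coding region on which they lie. The search asked for a C, any 5 bases, the loop letters CAGTGN and 5 bases that pair with the first 5 (G with T allowed), on the sense strand of protein-coding transcripts. All positions are on GRCm38 with the GENCODE M21 annotation. The capitals mark the loop, and each line runs 5′ to 3′ along the mRNA.
Slc40a1, exonic, 5′ UTR, chr1:45925465-45925492, minus strand: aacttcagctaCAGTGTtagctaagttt
Fth1, exonic, 5′ UTR, chr19:9982733-9982760, plus strand: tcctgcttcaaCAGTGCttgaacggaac
Ftl1, exonic, 5′ UTR, chr7:45459779-45459806, minus strand: tcttgcttcaaCAGTGTttgaacggaac
Tfrc, exonic, 3′ UTR, chr16:32631220-32631247, plus strand: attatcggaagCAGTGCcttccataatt
Tfrc, exonic, 3′ UTR, chr16:32631599-32631626, plus strand: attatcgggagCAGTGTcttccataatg
Tfrc, exonic, 3′ UTR, chr16:32631664-32631691, plus strand: tatatcggagaCAGTGAtctccatatgt
Tfrc, exonic, 3′ UTR, chr16:32631711-32631738, plus strand: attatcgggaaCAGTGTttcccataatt

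The ferritin hairpins are the most alike between genes: Fth1 and Ftl1 share 26 of 28 letters. The Slc40a1 hairpin shares 13 letters with each ferritin hairpin, and its stem is a different one around the same loop. Among the Tfrc hairpins, the closest pair shares 25 letters. The same search found a match in 294 of 21877 genes with a protein-coding transcript (1.34%), so that these letters alone are common enough to occur outside iron genes. A match is a description of the letters and not a proof of binding. Not every transcript of these genes held it. It lay in 1 of 4 protein-coding transcripts of Slc40a1, 1 of 3 of Tfrc, 4 of 5 of Fth1 and 1 of 2 of Ftl1. Reads counted per gene do not tell which of these transcripts were present. Slc11a2, Hmox1, Ireb2, Aco1, Heph and Steap3 held no match to these letters, which says nothing about other forms of the hairpin.

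The libraries held 9298675 exon reads in the dormant, 10364607 in the reactivating and 12941447 in the reactivated state. Levels are RPKM, exon reads scaled to the exon length in kilobases and to the size of the library. A 95% interval beside a level or a ratio covers counting error only, and the reads carry no molecular identifiers, so that they are not independent molecules. A gene was counted as higher or lower when its log2((RPKM + 1)/(RPKM + 1)) was at least 1 in size, that is 2 times, and its level in the higher library was 1 RPKM or more. All 8 trophectoderm, 6 inner cell mass and 6 primitive endoderm markers listed reached 1 RPKM, so markers of each blastocyst lineage were present. In a whole-embryo library, fewer cells of a type and less RNA per cell cannot be told apart. The median of all genes tested lay at 0.06 (6 h against dormant), -0.07 (12 h against dormant) and -0.13 (12 h against 6 h) on this log2 scale.

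At 12 h the exporter, the main importer and the heme-degrading enzyme were higher than in dormant embryos, and the endosomal ferric reductase was lower, by the size rule. Of the 10 genes, 9 had at least 1 RPKM. At 6 h against dormant 0 of the 9 were higher and 0 lower, where the same rule called 2.68% of all genes tested higher and 3.07% lower. In the 12 h library against the dormant one, Slc40a1, Tfrc and Hmox1 were higher (3 of 9) and Steap3 was lower (1 of 9), beside 5.27% and 7.66% of all genes tested. Between 12 h and 6 h the same 3 genes were higher, and Ftl1 and Steap3 were lower (2 of 9), beside 3.82% and 7.63%. Of all genes called in that comparison 33.4% were higher, against 44.0%, 50.2% and 43.7% with upper-quartile, median-ratio and nuclear protein-coding scaling, under which Ftl1 fell short of the size rule. Among protein-coding genes alone, the rule called 68 higher and 29 lower of 9960 at 6 h against dormant. It called 361 and 550 of 9948 at 12 h against dormant, and 243 and 659 of 9979 at 12 h against 6 h. Because the genes were picked with these values known, nothing is read from those shares and counts. The median log2 difference of the 9 genes was 0.04, -0.09 and -0.09 in the 3 comparisons, close to the medians of all genes given above. Steap3, at -1.06 for 12 h against dormant, lay just past the size rule and Ftl1, at -0.96, just short of it.

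**Figure D1:**
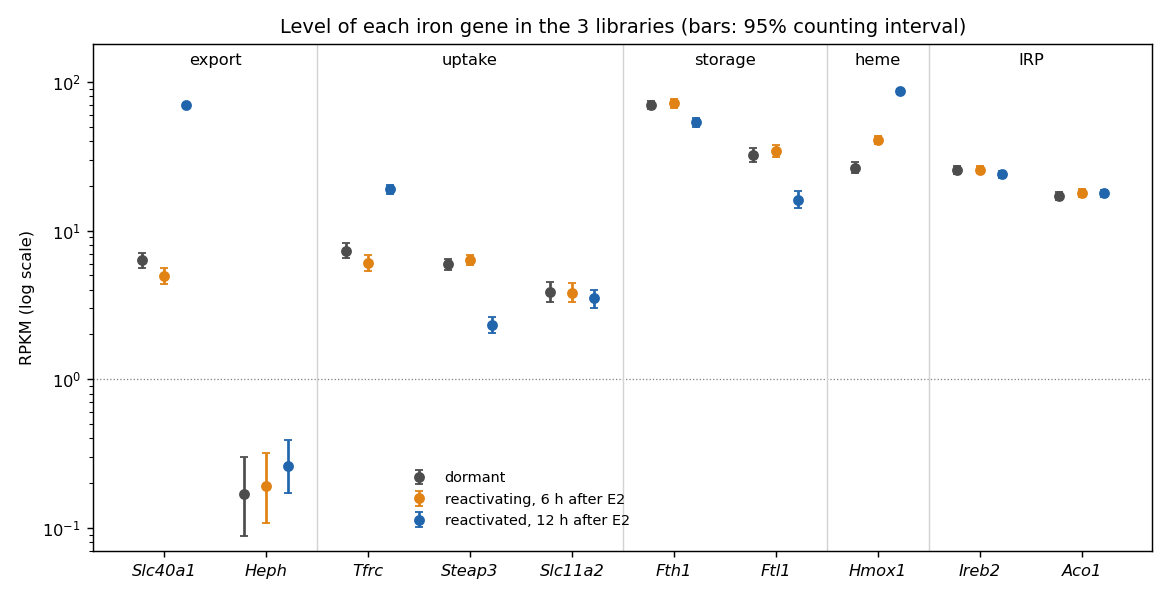
RPKM on a log axis for the 10 iron genes in the dormant (grey), reactivating (orange) and reactivated (blue) libraries, with 95% counting intervals as bars and the size rule's minimum of 1 RPKM dotted; IRP stands for the iron regulatory proteins. Slc40a1, Tfrc and Hmox1 stand highest at 12 h, Ftl1 and Steap3 lowest at 12 h, and Ireb2, Aco1 and Slc11a2 keep nearly level.

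Slc40a1 encodes ferroportin, the exporter. It lies on chromosome 1 from 45908068 to 45926523 on the minus strand. Its level was 6.33 RPKM in dormant embryos (302 exon reads, interval 5.63 to 7.08), 4.96 at 6 h (263 reads, 4.38 to 5.60) and 69.65 at 12 h (4469 reads, 67.6 to 71.7). The reactivated library stood apart from the other two, which lay near each other with the 6 h library the lower. Exon reads at 12 h were 11.01 times those of the dormant library (interval 9.79 to 12.4), a log2 difference of 3.27, and 14.0 times those at 6 h (12.4 to 15.96). At 6 h the ratio to dormant was 0.784 (0.662 to 0.928), short of the size rule. By log2 difference, Slc40a1 ranked 3 of 9948 protein-coding genes tested for 12 h against dormant and 2 of 9979 for 12 h against 6 h.

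The other read classes of Slc40a1 moved by a like factor. Intron reads, which come mostly from unspliced RNA, numbered 24, 19 and 422 in the dormant, 6 h and 12 h libraries. That is 13.1 times the dormant level at 12 h (interval 8.67 to 20.6), where the median intron ratio of all genes with at least 50 intron reads was 0.864. Reads across splice junctions numbered 25, 20 and 422, a ratio of 12.6 (8.39 to 19.6). The intervals of all 3 classes overlapped. Intron reads per 100 exon reads were 7.95, 7.22 and 9.44 in the same order.

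Heph encodes hephaestin, a copper ferroxidase that oxidises iron as it leaves the cell through ferroportin. It lies on chromosome X from 96455359 to 96574485. It had 12, 15 and 25 exon reads, or 0.17, 0.19 and 0.26 RPKM, below the minimum of the size rule in all 3 libraries. Its ratio at 12 h to dormant was 1.55 with an interval of 0.7502 to 3.385, so that no difference was detectable at this depth. Opposite-strand reads made up 21.6% to 26.8% of its gene reads, beside 4.08% to 5.18% over each whole library. Ceruloplasmin (Cp) and Hephl1, the related ferroxidases, were also low, at up to 0.10 and 0.48 RPKM. Hamp, the gene of hepcidin, the hormone that removes ferroportin from the membrane, was at 0 in all 3 libraries.

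Tfrc encodes the transferrin receptor. It lies on chromosome 16 from 32608920 to 32632794 on the plus strand. It was at 7.34 RPKM in dormant embryos (281 reads, interval 6.51 to 8.25), 6.04 at 6 h (257 reads, 5.32 to 6.83) and 18.9 at 12 h (973 reads, 17.7 to 20.1). As for Slc40a1, the 12 h library was high, and the other libraries lay near each other with the 6 h library the lower. Exon reads at 12 h were 2.58 times dormant (2.25 to 2.95) and 3.13 times those at 6 h (2.72 to 3.60), and those at 6 h were 0.823 of dormant (0.692 to 0.978).

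Tfrc intron reads numbered 58, 62 and 177, a ratio of 2.27 at 12 h to dormant (1.68 to 3.11). Junction reads numbered 91, 62 and 275, a ratio of 2.25 at 12 h to dormant (1.77 to 2.88). At 6 h to dormant the junction ratio was 0.613 (0.437 to 0.856). Exon, intron and junction ratios at 12 h thus overlapped within counting error. The Tfrc hairpins printed above lie late in the 3′ UTR, with their bulged C between positions 3321 and 3812 of a transcript of 4890 bases. The deposited exon length is 2712, so the authors' gene model is shorter than that transcript, and whether reads over the hairpins were counted is not known.

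Steap3 encodes the reductase that turns ferric into ferrous iron in the endosome after transferrin has delivered it. The gene lies on chromosome 1 from 120190757 to 120272705 on the minus strand. It had 472 exon reads in dormant embryos, 562 at 6 h and 250 at 12 h. These gave 5.92 RPKM (interval 5.40 to 6.48), 6.35 (5.83 to 6.89) and 2.33 (2.05 to 2.64). The 12 h library was the low one, opposite to Tfrc. Its exon ratio at 12 h was 0.394 to dormant (0.337 to 0.460) and 0.368 to 6 h (0.315 to 0.427). Intron reads, at 225, 257 and 112, gave a ratio to dormant of 0.370 (0.292 to 0.466). Junction reads were few, at 24, 12 and 18. Their ratio at 12 h to dormant was 0.558 (0.285 to 1.07), which overlapped the exon ratio. Against 6 h it was 1.24 (0.565 to 2.82), apart from the exon ratio. At 6 h to dormant it was 0.450 (0.205 to 0.936), with the exon ratio at 1.07 (0.947 to 1.21). The lower exon level at 12 h against 6 h was therefore not shared by the junction reads. Reads on the opposite strand numbered 13, 26 and 45 and so went the other way, from 1.90% to 11.6% of the gene's reads.

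Slc11a2 encodes DMT1, the transporter that carries ferrous iron out of the endosome and, in the gut, in from the lumen. It lies on chromosome 15 from 100387898 to 100425072 on the minus strand. Slc11a2 was at 3.86 RPKM in dormant embryos, 3.82 at 6 h and 3.50 at 12 h, from 169, 186 and 206 exon reads. The 3 libraries lay within each other's counting intervals, and the ratio of 12 h to dormant was 0.907 (0.736 to 1.12). Slc11a2 carried about as many intron as exon reads, 112, 101 and 135 per 100 exon reads. Its deposited exon length is 3102, against 4415 bases for its longest M21 transcript. Whether reads over the remaining exon bases were counted as intron is not known. Its opposite-strand reads numbered 13, 28 and 60. Gm5475, a gene on the other strand, overlaps it in M21, and the part of that overlap in these reads was not tested.

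So within the transferrin route the receptor was higher, the reductase lower and the endosomal transporter level at 12 h. The wider list of transferrin-cycle and ferric-reduction genes held 10 genes, of which 4 had at least 1 RPKM, and 0 were higher and 1 lower at 12 h against dormant, beside 5.27% and 7.66% of all genes tested. That gene was Mcoln1, an endolysosomal channel that passes iron, at 18.8, 19.28 and 7.95 RPKM. Snx3, a sorting protein that returns the receptor to the surface, was highest in that list at 66.87, 64.06 and 74.04 RPKM. Trf, transferrin itself, lay between 1.19 and 1.96 RPKM, and the other Steap reductases (Steap1, Steap2, Steap4) were at or under 0.43 RPKM. Steap3 was thus the only Steap gene with at least 1 RPKM in any library.

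The list of import routes other than transferrin held 8 genes, 5 of them with at least 1 RPKM. None was higher or lower in the 3 comparisons, and the lack of a call has no replicate behind it. Among all genes tested, the rule called 2.68% higher and 3.07% lower at 6 h against dormant. At 12 h it called 5.27% and 7.66% against dormant, and 3.82% and 7.63% against 6 h. Lrp2 (megalin) stood at 12.52, 8.19 and 6.46 RPKM and Cubn (cubilin), its partner in endocytosis, at 7.98, 4.88 and 9.12. They are the highest of the list by their mean over the 3 libraries, and their log2 differences at 12 h against dormant were -0.86 and 0.17.

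Fth1 encodes the heavy chain of ferritin, which oxidises iron as it enters the shell. Its place is chromosome 19 from 9980598 to 9985098 on the plus strand. Fth1 was at 69.93 RPKM in dormant embryos (854 reads, interval 65.3 to 74.8), 71.71 at 6 h (973 reads, 67.3 to 76.4) and 53.59 at 12 h (880 reads, 50.1 to 57.3). It was the most abundant of the 10 genes in the first 2 states. The 12 h library was lower, at 0.766 of dormant (0.697 to 0.843), without passing the size rule.

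The read classes of Fth1 did not point one way. Intron reads numbered 60, 94 and 128, a ratio of 1.59 at 12 h to dormant (1.16 to 2.19). Junction reads numbered 100, 188 and 192, a ratio of 1.43 (1.12 to 1.84). Both lay above 1 while all exon reads lay below 1, and these intervals did not overlap with that of the exon ratio. At 6 h the junction ratio was 1.69 (1.32 to 2.18) with the exon ratio at 1.03 (0.934 to 1.13), where the median junction ratio of genes with at least 50 such reads was 1.06. Against dormant, the lower exon level of Fth1 at 12 h was therefore not shared by its junction reads. Against 6 h the junction ratio was 0.844 (0.687 to 1.04) and overlapped the exon ratio of 0.747 (0.682 to 0.820).

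Ftl1 encodes the light chain, which helps lay down the mineral core. Its place is chromosome 7 from 45457944 to 45459884 on the minus strand. Its own row gave 32.38 RPKM in dormant embryos (347 reads, interval 29.1 to 36.0), 34.27 at 6 h (408 reads, 31.0 to 37.8) and 16.17 at 12 h (233 reads, 14.2 to 18.4). The dormant and 6 h libraries overlapped and the 12 h library was low. The ratio at 12 h was 0.499 to dormant (0.421 to 0.591) and 0.472 to 6 h (0.40 to 0.556). Intron reads numbered 93, 82 and 92, a ratio to dormant of 0.736 (0.545 to 0.992).

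The Ftl1 values are uncertain because the gene has near copies. Of the windows of 50 bases, the read length, along its main transcript, 78.9% also occur in other annotated genes, against 4.01% for Fth1 and 0 for the other 8 genes. Junction reads of Ftl1 numbered 39, 13 and 18, so that their ratio at 6 h was 0.300 (0.147 to 0.574) while the exon ratio was 1.06 (0.915 to 1.22). The miRNA gene Gm22133 lies inside the last exon of Ftl1 and has 148, 134 and 92 reads in its own row, and whether these are also among the Ftl1 reads is not known. Summed over Ftl1 and the 11 genes in the tables that share windows with it, reads numbered 550, 590 and 350. The ratio of that sum at 12 h to dormant was 0.473 (0.413 to 0.542). The sum includes Gm22133, so any of its reads also in the Ftl1 row are counted more than once. In that case the interval is too narrow. The symbol Ftl1 stands in the tables beside another row, on chromosome 13, which M21 calls Ftl1-ps1 and which had 1, 7 and 6 reads. That row's transcript carries the same hairpin letters as Ftl1.

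The mRNAs of the ferritin chains were not in a fixed proportion. Per kilobase of exon, Fth1 had 2.16 times the reads of Ftl1 in dormant embryos (interval 1.90 to 2.45), 2.09 times at 6 h (1.86 to 2.35) and 3.31 times at 12 h (2.87 to 3.85). The 12 h ratio lay above the others, subject to the copies of Ftl1 just described. The list of storage and ferritin-turnover genes held 8 others, of which 4 had at least 1 RPKM, with 0 higher and 0 lower in each comparison. Of all genes tested, 2.68% were higher and 3.07% lower at 6 h against dormant. At 12 h these shares were 5.27% and 7.66% against dormant, and 3.82% and 7.63% against 6 h. Pcbp4 and Pcbp1, poly(C)-binding proteins of which the latter delivers iron to ferritin, were at 41.2, 40.84 and 32.31 RPKM and at 40.56, 22.78 and 28.36 RPKM. Ncoa4, the receptor that takes ferritin to the lysosome, stayed between 0.53 and 0.72 RPKM.

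Hmox1 encodes heme oxygenase 1, which opens heme and frees its iron. It lies on mouse chromosome 8 from 75093621 to 75100589. Hmox1 was at 26.52 RPKM in dormant embryos (587 reads, interval 24.4 to 28.8), 40.74 at 6 h (1002 reads, 38.3 to 43.3) and 86.41 at 12 h (2572 reads, 83.1 to 89.8). The 3 intervals were apart and in the order of the time after E2, which no other of the 10 genes showed upward. The ratio to dormant was 1.54 at 6 h (1.39 to 1.70), under the size rule, and 3.26 at 12 h (2.98 to 3.57). At 12 h it was the most abundant of the 10 genes.

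The reads across junctions of Hmox1 did not follow its exon reads at 6 h. They numbered 69, 51 and 161, so that the 6 h ratio was 0.665 (0.454 to 0.969) where all exon reads gave 1.54. At 12 h the junction ratio was 1.74 (1.30 to 2.34) and the intron ratio, from 52, 76 and 158 reads, was 2.26 (1.64 to 3.15). All 3 classes were above dormant at 12 h, by different amounts. The higher level at 6 h rests on exon reads that do not cross a junction.

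Hmox2, the constitutive heme oxygenase, stood at 19.63, 20.43 and 20.71 RPKM. Blvra, a biliverdin reductase that acts on the product of heme oxygenase, was at 5.10, 6.81 and 9.81 RPKM, a log2 difference of 0.83 at 12 h, under the size rule. It is named here outside the rule for named genes, after its values were seen. Of 13 genes of heme transport and breakdown, 9 had at least 1 RPKM at 12 h or in dormant embryos, and 0 were higher and 2 lower, beside 5.27% and 7.66% of all genes tested. The lower ones were Flvcr2, a transporter first described for heme, at 10.25, 9.17 and 2.24 RPKM, and Slc46a1, a folate transporter that was also reported to carry heme, at 34.20, 31.20 and 14.52 RPKM. Both were also lower at 12 h against 6 h. There Slc46a1, at -1.05, fell short of the size rule with upper-quartile, median-ratio and nuclear protein-coding scaling.

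**Figure D2:**
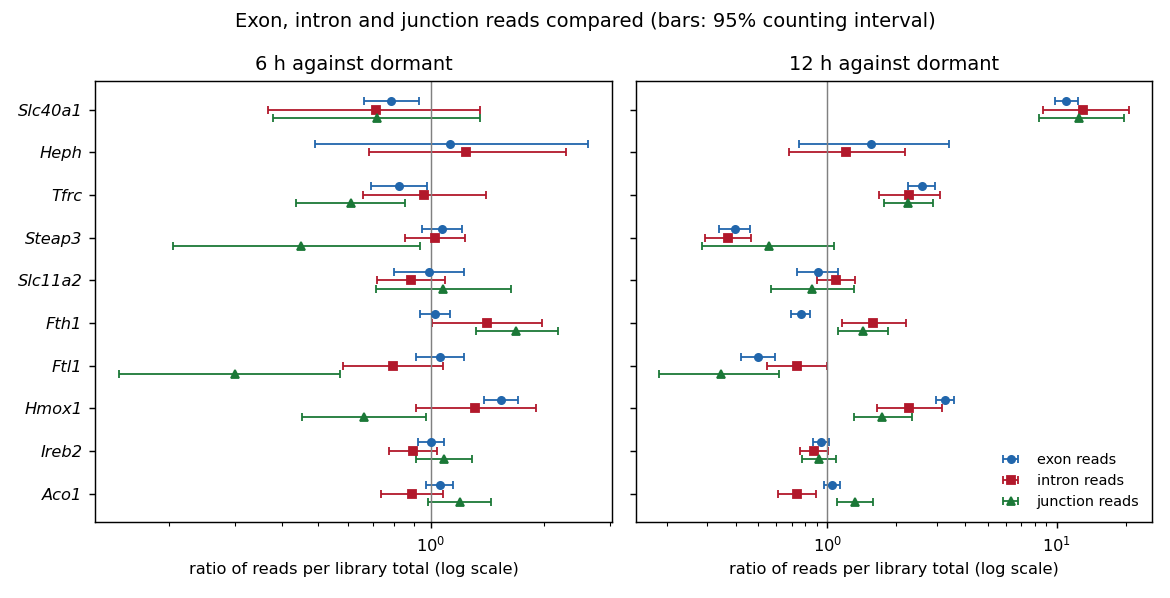
Ratios to the dormant library of exon (blue), intron (red) and junction (green) reads per library total for each gene, at 6 h (left) and 12 h (right), on log axes with 95% counting intervals; the junction reads of Heph, too few to plot, are left out. At 12 h the 3 classes lie together for Slc40a1, Tfrc and Ireb2, and apart for Fth1, with exon reads at 0.766 and intron reads at 1.59.

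Ireb2 and Aco1 encode the iron regulatory proteins that read the hairpins. Aco1 is a cytosolic aconitase when it carries an iron-sulfur cluster and binds RNA when it does not, and Ireb2 is removed by proteolysis when iron is plentiful, through Fbxl5. Ireb2 lies on chromosome 9 from 54863789 to 54912530 and Aco1 on chromosome 4 from 40143081 to 40198338. Ireb2 was at 25.52, 25.58 and 23.91 RPKM from 1178, 1312 and 1484 exon reads. Aco1 was at 16.99, 17.94 and 17.83 RPKM from 1043, 1224 and 1472 reads. For both, the 3 intervals overlapped: the ratio at 12 h to dormant was 0.937 (0.867 to 1.01) for Ireb2 and 1.05 (0.969 to 1.14) for Aco1. These are narrow intervals, since each library gave both genes 1043 reads or more, and they hold counting error alone.

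Aco1 intron reads were 223, 221 and 222 in libraries of growing size, a ratio at 12 h to dormant of 0.740 (0.612 to 0.896), where the median intron ratio of all genes was 0.864. Its junction ratio was 1.32 (1.10 to 1.58). Ireb2 intron reads numbered 371, 369 and 435, a ratio of 0.872 (0.757 to 1.004) close to that median. Per kilobase, Ireb2 had 1.502, 1.43 and 1.34 times the reads of Aco1 in the 3 libraries, with neighbouring intervals overlapping.

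The list of iron and heme sensing regulators held 13 genes, all with at least 1 RPKM, and 0 were higher and 1 lower at 12 h against dormant, beside the same 5.27% and 7.66%. The lower one was Zfp36 (tristetraprolin), a protein that destabilises mRNAs with AU-rich ends, at 16.01, 14.95 and 7.04 RPKM. With median-ratio scaling Zfp36 fell short of the size rule. Skp1a and Cul1, subunits of the ubiquitin ligase that Fbxl5 directs, were the highest of the list on average, at 31.93, 33.72 and 55.21 RPKM and at 27.53, 30.57 and 39.87 RPKM. Fbxl5 itself was at 19.98, 17.37 and 15.71 RPKM. Bach1, the heme-sensing repressor of Hmox1, was at 14.81, 17.17 and 9.62 RPKM, and Nfe2l2, an activator of Hmox1, ferritin and ferroportin genes, at 21, 23.98 and 30.97 RPKM. None of these passed the size rule, with log2 differences at 12 h against dormant of -0.33, -0.57 and 0.54 for Fbxl5, Bach1 and Nfe2l2. Keap1, Mafk and Mafg of the same list were at 0.25, -0.18 and -0.51, also under the size rule. Fbxl5, Bach1, Nfe2l2, Keap1, Mafk and Mafg were named after their values were seen. Their part in the levels of the 10 genes was not tested.

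The order of the 10 genes by RPKM changed between the states. In dormant embryos it ran Fth1, Ftl1, Hmox1, Ireb2, Aco1, Tfrc, Slc40a1, Steap3, Slc11a2 and Heph. Within that order the neighbours Hmox1 and Ireb2, Tfrc and Slc40a1, and Slc40a1 and Steap3 had overlapping intervals. In the 6 h library it ran Fth1, Hmox1, Ftl1, Ireb2, Aco1, Steap3, Tfrc, Slc40a1, Slc11a2 and Heph, and neighbours overlapped from Steap3 through Slc11a2. At 12 h it ran Hmox1, Slc40a1, Fth1, Ireb2, Tfrc, Aco1, Ftl1, Slc11a2, Steap3 and Heph, and there Tfrc with Aco1 and Aco1 with Ftl1 overlapped. Slc40a1 thus went from place 7 to place 2, and from the top 54.9% to the top 3.63% of the protein-coding genes that reached 1 RPKM.

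Ratios taken inside one library do not depend on how libraries are scaled to each other. Slc40a1 had 0.862 times the exon reads per kilobase of Tfrc in dormant embryos (interval 0.731 to 1.02), 0.821 times at 6 h (0.689 to 0.979) and 3.69 times at 12 h (3.44 to 3.95). Exporter and receptor mRNA were thus nearly level in the first 2 states, and the exporter was ahead at 12 h. Against Fth1 the ratio of Slc40a1 was 0.0905, 0.0692 and 1.30. Hmox1 had 4.19, 8.21 and 1.24 times the reads of Slc40a1.

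**Figure D3:**
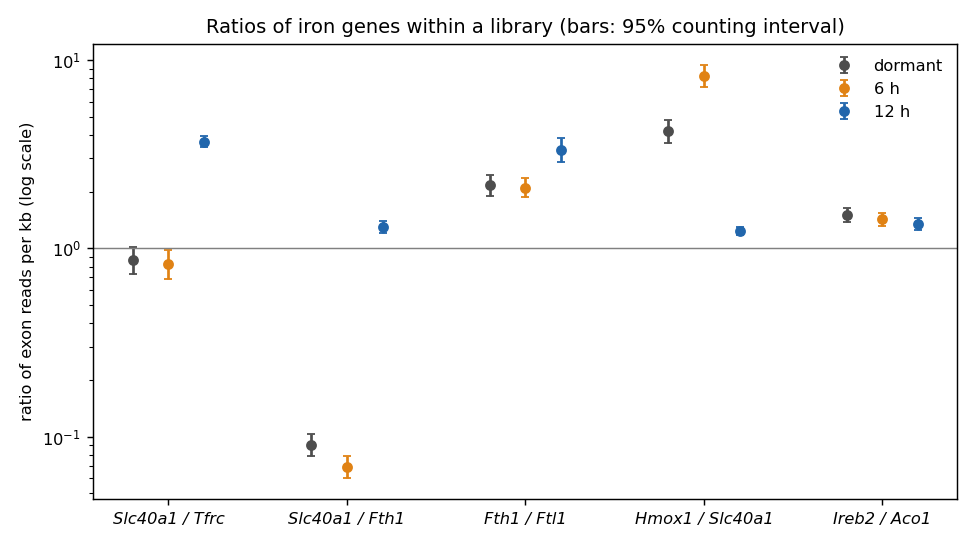
Ratio of exon reads per kilobase between pairs of iron genes within the dormant (grey), 6 h (orange) and 12 h (blue) library, on a log axis with 95% counting intervals and a line at 1. Slc40a1 over Tfrc is near 1 at first and 3.69 at 12 h, and Ireb2 over Aco1 stays between 1.34 and 1.502.

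Among 6788 protein-coding genes that reached 5 RPKM, the 5 with the pair of log2 differences (6 h against dormant, 12 h against 6 h) nearest to those of Slc40a1 were Dmkn, Krt19, Ldha, Ctsll3 and Slc16a3. Only Dmkn, a gene for a secreted epithelial protein, was close, at a distance of 0.20 log2 units, with 2.49, 1.79 and 27.76 RPKM. The others, at 0.96 to 1.04, include Krt19, a keratin of epithelia and trophectoderm, at 16.03, 17.82 and 122.97 RPKM, and Ldha, a lactate dehydrogenase subunit, at 3.55, 3.20 and 24.58 RPKM. The 5 nearest to Tfrc were Nsdhl, Ctsc, Pno1, Fignl1 and Rrm2, at distances of 0.07 to 0.13. The nearest genes to Tfrc were thus closer to it than those of Slc40a1, and likeness over 3 libraries is a description only.

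The fixed list of other iron genes held 101 genes in the tables, in the groups given above and below. At 6 h against dormant 77 had at least 1 RPKM, and 0 were higher and 0 lower, beside 68 and 29 of 9960 protein-coding genes. For 12 h against dormant 0 of 77 were higher, beside 5.27% of all genes tested and 361 of 9948 protein-coding genes. In that comparison 5 were lower (6.49%, beside 7.66% of all genes tested and 550 of 9948 protein-coding genes). For 12 h against 6 h 0 of 78 were higher, beside 3.82% of all genes and 243 of 9979 protein-coding genes. There 3 were lower (3.85%, beside 7.63% of all genes and 659 of 9979 protein-coding genes). The medians of 0.06, -0.06 and -0.18 lay near those of all genes. The direction of each gene past the size rule was the same in both comparisons where it was called.

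Of the remaining groups, mitochondrial iron and iron-sulfur assembly had 27 of 27 genes with at least 1 RPKM, and 0 were higher and 1 lower at 12 h against dormant, beside 5.27% and 7.66% of all genes tested. That gene was Hscb, a co-chaperone that helps pass iron-sulfur clusters on, at 6.89, 4.79 and 2.08 RPKM. Hspa9, the mitochondrial chaperone it works with, was the highest of the group at 54.68, 55.24 and 79.16 RPKM, followed in mean level by Ciapin1, of the cytosolic assembly pathway, at 27.09, 34.98 and 39.56 RPKM. Heme synthesis had 11 of 12 genes with at least 1 RPKM. At 12 h against dormant 0 of these were higher and 0 lower, beside the same 5.27% and 7.66%. Tmem14c, which helps move a heme precursor into mitochondria, had the highest mean level of that group, at 27.48, 46.97 and 26.19 RPKM. The enzyme Urod followed, at 22.11, 19.32 and 12.97 RPKM. Of the 10 partners of export and genes of systemic control, 4 had at least 1 RPKM. Again 0 were higher and 0 lower at 12 h against dormant, beside the same 5.27% and 7.66%. Neo1, a receptor in hepcidin control, was at 8.63, 6.90 and 4.13 RPKM and Bmpr2, a BMP receptor, at 5.57, 5.51 and 4.76 RPKM.

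**Figure D4:**
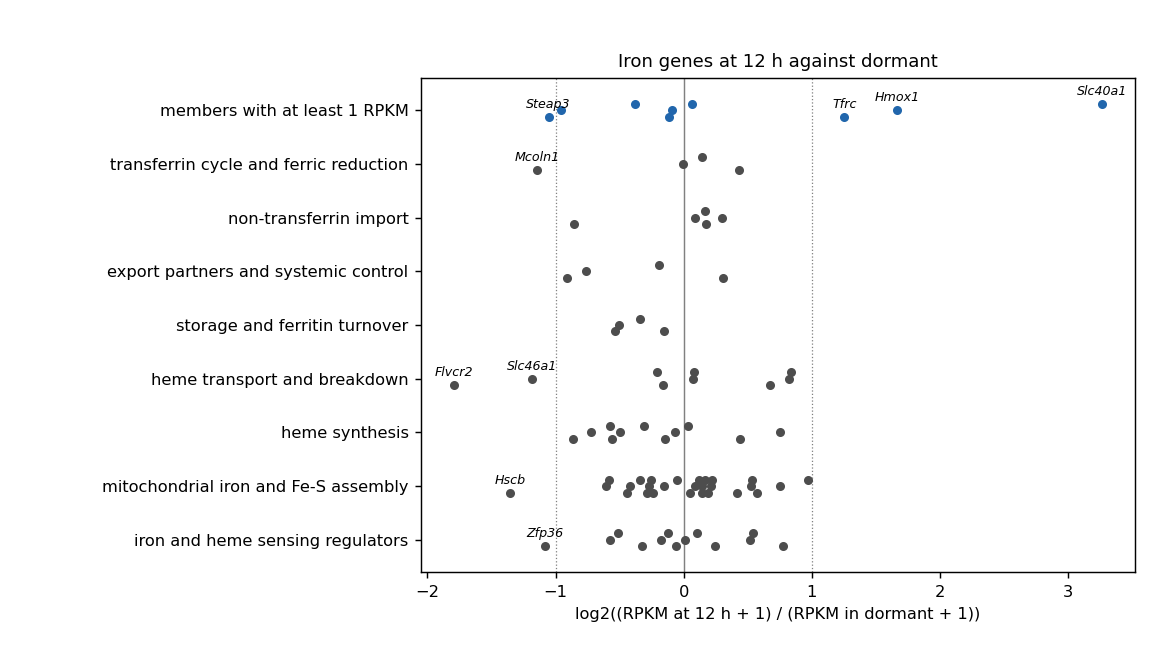
Log2 difference in RPKM + 1 between the 12 h and dormant libraries for iron genes that reached 1 RPKM in either, 1 point a gene, blue for the genes this text is about and grey for the other iron genes by group. The dotted lines mark the size rule and the genes past it are named; in the grey groups all 5 lie on the lower side.

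Macrophages and red-cell precursors are rich in ferroportin, heme oxygenase and transferrin receptor, so their markers are given beside these genes. Of the 11 macrophage and other immune markers, 4 had at least 1 RPKM in dormant or 12 h embryos. Of these, 3 (Cd14, Tyrobp and Laptm5) were lower at 12 h, beside 7.66% of all genes tested, Tyrobp from 9 reads to 0. The level summed over all 11 was 23.68, 18.12 and 8.13 RPKM. Laptm5 took most of it, at 13.74, 11.52 and 4.11 RPKM, and Ptprc, the pan-leukocyte marker, and Adgre1 lay at or under 0.27 RPKM. From dormant to 12 h, Csf1r stayed at 0.54 RPKM. Ptprc (0.09 to 0.20), Fcer1g (0.47 to 0.78) and Cd163 (0.02 to 0.05) stood higher at 12 h, and the rest of the list lower. Of 9 erythroid markers in the tables, Hba-a1 and Hba-a2 were at 0 in all 3 libraries and the sum was 2.36, 2.04 and 3.51 RPKM, mostly from Gata1. The 12 uterine epithelium markers summed to 110.07, 104.1 and 61.37 RPKM, with Lif and Wfdc2 lower at 12 h by the size rule. Msx1, Lif and Wfdc2 took most of the dormant sum, at 36.28, 35.75 and 30.11 RPKM. Ltf, Ihh, Pax8, Calb1, Areg, Esr1 and Pgr each lay under 1 RPKM in the dormant and 12 h libraries. Foxa2 (1.82 to 3.60 RPKM), Ltf, Areg, Calb1 and Esr1 stood higher at 12 h than in dormant embryos. The rest stood lower, among them Msx1, from 36.28 to 30.64 RPKM. The uterine stroma markers summed to 7.56, 5.78 and 6.16 RPKM. Within that list Vim (3.58 to 4.89 RPKM) and Hoxa11 stood higher at 12 h than in dormant embryos. The rest stood lower, among them Col3a1, from 2.39 to 0.71 RPKM. The 6 liver markers summed to 3.51, 2.41 and 5.18 RPKM. Among them Apoa1, an apolipoprotein, was higher at 12 h than in both other states, at 0.39, 0.28 and 2.98 RPKM, as Slc40a1 was, and Ttr was lower at 12 h than in dormant embryos, at 1.38, 0 and 0.17 RPKM. Among the trophectoderm markers Elf5 was higher at 12 h, at 30.09, 30.47 and 81.26 RPKM, and Cdx2 and Gata3 were lower, from 112.57 to 34.83 and from 48.01 to 21.12 RPKM between the dormant and 12 h libraries. Among the inner cell mass markers Esrrb was lower at 12 h than at 6 h, at 15.58, 17.09 and 7.70 RPKM. The part of such shifts in the iron genes was not tested.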

How the data were processed

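RNA from 3 pooled blastocyst libraries, 1 per state, was depleted of rRNA and sequenced as 50 bp single-end SOLiD reads, per the labels' protocols. The authors deposited, per the file headers, read counts per gene in exons, introns, splice junctions and on the opposite strand, and an RPKM per gene. The submitters' processing notes name GRCm38. Which aligner, counting tool or annotation release was used is not given in the sources used here. RPKM followed from the deposited exon counts within 2% with totals of 14118723, 15687239 and 18982195 reads, for all genes but 1 in the reactivated library.

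Rows were matched by symbol and Ensembl ID. Of the 10 genes, 4 carried their own symbol and 6 were found through GENCODE M21, which holds 84.7% of the deposited IDs. Its gene models differ from the deposited lengths. Ftl1 was read by its ID, since its symbol stands on a pseudogene row. Of the other listed iron genes, 101 were in the tables.

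A state with 1 library allows no test, SD or p-value. Differences are log2((RPKM + 1)/(RPKM + 1)), which understates changes of low genes. Levels have exact Poisson and ratios exact binomial intervals at 95%, for counting error only. A count of 0 allows up to 0.158 to 0.212 RPKM for 1 kb of exon. Named genes were the 10, listed iron genes past the size rule at 5 RPKM or more, the 2 highest per list by mean RPKM, 5 nearest patterns each for Slc40a1 and Tfrc, and markers past the size rule at 5 RPKM or more. Trf, the Steap paralogs, Cp, Hephl1, Hamp, Ncoa4 and the markers under 5 RPKM are named outside this rule, after their values were seen. The genes and lists were chosen with earlier results of these data known. The comparisons share libraries. The scripts were tested on simulated counts and run with Python 3.11.15, numpy 2.4.6, pandas 2.3.3 and scipy 1.17.1.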

Additional observations from a re-analysis of the deposited data

How the results depend on the processing

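Each comparison was recomputed with 9 other choices of processing and 2 more, both about Ftl1, added after seeing the data. The sign of Slc40a1, Tfrc and Hmox1 at 12 h, and their calls, held under each of them. Each of 180 recomputed differences of single genes was set against the distance from the middle to the end of its counting interval, in log2 units. Of these, 167 moved by no more than that distance, 13 by more, and 0 called ones changed sign. For these 10 genes the count of lower ones moved. Against dormant at 12 h it was 0 with median-ratio scaling (Steap3 at -0.99) and 2 with CPM of exon reads, with a fold of 1.5 and with the reads of Gm22133 added to Ftl1. Against 6 h it was 1 with upper-quartile, median-ratio or nuclear protein-coding scaling, with CPM of exon and intron reads, and with both readings of Ftl1. A fold of 1.5 made 1 gene, Hmox1, higher at 6 h. Among the other iron genes the number higher at 6 h became 1 with CPM of exon and intron reads and 4 with a fold of 1.5, which also gave 2 lower. For 12 h against dormant the number higher became 2 with a pseudocount of 0.1 and 1 with median-ratio scaling. It became 1 with CPM of exon reads and 7 with a fold of 1.5. The number lower there became 11 with that fold, 7 with that pseudocount, 7 with CPM of exon reads and 4 with median-ratio scaling. For 12 h against 6 h the number higher became 2 with a pseudocount of 0.1 and 6 with a fold of 1.5. It became 2 with CPM of exon reads and 2 with CPM of exon and intron reads. The number lower there became 6 with that pseudocount, 11 with that fold and 4 with either CPM. It became 2 with upper-quartile, median-ratio or nuclear protein-coding scaling. The cause was not tested, but the lower fold calls more genes by its construction. Over all genes tested that fold called 957 higher and 798 lower of 12126 at 6 h against dormant, 1712 and 2439 of 12037 at 12 h against dormant, and 1388 and 2550 of 12065 at 12 h against 6 h. Median-ratio scaling brought the median of all genes at 12 h against 6 h from -0.13 to 0.01. No paired analysis was possible because each state has 1 library and no test was run. The lack of replicates limits every difference here, and depth limits Heph, junction reads and the copies of Ftl1.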

Other observations

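Fthl17a, a ferritin heavy chain-like gene on the X chromosome, was chosen after its values were seen. It had 46 exon reads in dormant embryos, 94 at 6 h and 162 at 12 h. These gave 3.79 RPKM (interval 2.77 to 5.05), 6.97 (5.63 to 8.53) and 9.92 (8.45 to 11.6), in the order of the time after E2, while Fth1 was lowest at 12 h. Its ratio at 12 h to dormant was 2.62 (1.88 to 3.72), a log2 difference of 1.19. Junction reads numbered 0, 0 and 1, so these reads do not show its splicing. The deposited gene spans 20610 bases with 860 of exon.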
